A study of Mus musculus with 4 samples.

Results

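Intergenic NKX2.2 summits close to genes are the subject here: peaks of NKX2.2 binding in the mouse alpha cell line alphaTC6 that fall between protein-coding genes but within 50 kb of one. They were chosen by position alone. Each lies on chromosomes 1 to 19 or X, outside every protein-coding gene, over 1 kb from the boundary of any annotated gene of any kind, and at most 50 kb from the nearest protein-coding boundary. Of the 7380 summits placed on these chromosomes, 1231 met the rule, a share of 16.7% (95% Wilson interval 15.8% to 17.5%). The full list has 7384 summits.

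The study has 4 samples of alphaTC6 cells with the genotype label WT, 2 biological replicates of NKX2.2 chromatin immunoprecipitation (ChIP) and 2 of input, the unenriched DNA that serves as control. No treatment or time is named in the labels, and alphaTC6 is 1 cell line, so it stands for alpha cells only as a cultured line. The list gives 1 value per peak, taken as the −log10 q-value of ChIP over input and called the score below, and no value per library. Replicate error and depth are therefore unknown, no test between samples was possible, and the label "alpha cells" could not be checked against marker expression.

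NKX2.2 is a homeodomain transcription factor of the developing and adult pancreatic islet, where it works both as an activator and, through Groucho corepressors, as a repressor. Its family recognises a short DNA core, CACTT on one strand and AAGTG on the other. Factors of this kind bind promoters and also enhancers, which can lie between genes at a distance from the gene they act on. The nearest gene named below is a matter of position: it is not shown to be the gene that a summit regulates.

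Sequence under a summit is shown only where a RefSeq window (build GRCm38.p6, from 250 bases before to 50 after an annotated start) covers it, since no genome was used. Such windows, all at inner starts of long noncoding RNA genes on the + strand, covered 3 of the 1231 summits. They are printed 5′ to 3′, with the 21 bases centred on the summit in capitals. Gm26812 is at chr8:121851615-121851914, 5930403N24Rik at chr10:37140820-37141119 and Gm35409 at chr3:146038016-146038315.
Gm26812: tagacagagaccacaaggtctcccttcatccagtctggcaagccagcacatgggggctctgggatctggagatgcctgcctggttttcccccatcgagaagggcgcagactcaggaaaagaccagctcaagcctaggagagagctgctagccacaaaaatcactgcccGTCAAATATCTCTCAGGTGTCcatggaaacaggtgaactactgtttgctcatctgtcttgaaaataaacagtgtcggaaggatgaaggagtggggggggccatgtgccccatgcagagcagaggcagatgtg
5930403N24Rik: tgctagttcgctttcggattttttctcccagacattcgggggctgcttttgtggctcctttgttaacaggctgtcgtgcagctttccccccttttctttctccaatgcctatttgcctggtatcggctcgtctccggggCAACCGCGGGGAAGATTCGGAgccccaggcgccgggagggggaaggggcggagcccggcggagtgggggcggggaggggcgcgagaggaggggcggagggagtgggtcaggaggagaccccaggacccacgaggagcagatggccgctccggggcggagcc
Gm35409: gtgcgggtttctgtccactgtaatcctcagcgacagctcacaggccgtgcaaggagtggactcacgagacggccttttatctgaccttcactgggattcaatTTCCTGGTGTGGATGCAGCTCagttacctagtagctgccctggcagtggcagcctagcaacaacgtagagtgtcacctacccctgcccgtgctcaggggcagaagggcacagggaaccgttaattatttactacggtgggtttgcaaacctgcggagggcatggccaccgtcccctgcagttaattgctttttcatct

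The summit in the Gm26812 window, at position 121851793, had a score of 119.97, which ranked 291 in the whole list. In 5930403N24Rik the summit at 37140969 had a score of 53.3 and lay 2.04 kb from Marcks, which encodes a membrane-bound substrate of protein kinase C. In Gm35409 the summit at 146038128 had a score of 22.7 and lay 2.40 kb from Wdr63. The core CACTT, searched on both strands, was in 0 of these 3 windows and in 46.3% of all 32585 promoter windows of 300 bases. The GC box GGGCGG was in 1 of the 3 windows, that of 5930403N24Rik, and in 35.9% of all promoter windows. The E-box CATCTG was in 2 of the 3, against 17.1% of all and 11.3% of the 1623 promoter windows with a summit. It was the highest of many motifs searched, since each of the others was in 0 or 1 of the 3 windows. In those 2 windows its sites lay outside the capitals around the summit. With only 3 windows, no enrichment at summits can be read from these counts. A missing core says only that these letters are not in the window.

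Scores of the near-gene intergenic summits ran from 2.06 to 1648, with a median of 15.02 (95% order-statistic interval 14.2 to 16.1) and a middle range from 8.66 to 29.5. Over all placed summits the median was 13.7. For the 849 intergenic summits over 50 kb from protein-coding genes it was 14.5 (interval 13.4 to 15.6), which overlaps the near-gene interval. Their upper quartile, 31.3, was above the 29.5 of the near-gene summits. The median was 13.9 for the 2764 inside protein-coding genes and over 1 kb from any boundary, and 12.7 for the 2536 within 1 kb of any gene boundary. Among the near-gene intergenic summits, 85 reached a score of 100, 6.90% (Wilson interval 5.62% to 8.46%), beside 5.08% of all placed summits. For far intergenic summits that share was 6.36%, for those inside genes 5.46% and for those at boundaries 3.35%.

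The share of the list that was near-gene intergenic differed by score. It was 13.7% among the 721 summits with scores under 5 (interval 11.4% to 16.4%) and 15.3% for scores of 5 to 10. Between scores of 10 and 100 it lay from 16.9% to 18.1%. It was 24.5% for scores of 100 to 200 (interval 19.3% to 30.4%, 229 summits) and 19.9% at 200 or more (interval 14.2% to 27.1%, 146 summits). These intervals cover counting error only, and no difference between classes was tested, since summits of 1 list are not replicates.

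**Figure D1:**
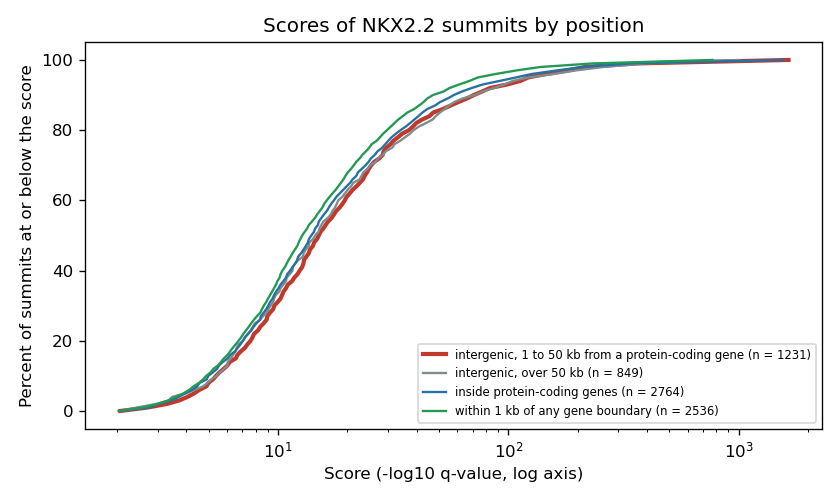
Cumulative distribution of the peak score (−log10 q-value, log axis) for the 4 position classes; the vertical axis is the percent of summits at or below a score. The near-gene intergenic curve (red, median 15.02) lies to the right of the curve for summits within 1 kb of a boundary (green, median 12.7), and the other 2 classes run between or beside them.

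The stretches that meet the rule made up 560.1 Mb, 21.4% of the 2612 Mb between the outermost genes of the chromosomes. The near-gene intergenic density was thus 2.198 summits per Mb (exact Poisson interval 2.08 to 2.32). Intergenic sequence over 50 kb from protein-coding genes had 0.917 per Mb (interval 0.857 to 0.981). Sequence inside protein-coding genes had 2.87 per Mb and sequence within 1 kb of any gene boundary 15.6 per Mb. The near-gene stretches therefore lay between far intergenic and intragenic sequence in density, with intervals that do not overlap. Assembly gaps and sequence that short reads cannot map to were not removed from these lengths, and summits cluster, so these intervals are too narrow.

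Distances to the nearest protein-coding boundary had a median of 12.8 kb (interval 11.6 to 14.1), with the middle range from 5.23 to 26.4 kb. Density was highest in the bin closest to genes and similar in the bins past 10 kb. It was 2.79 per Mb at 1 to 5 kb (295 summits, interval 2.48 to 3.13), 2.43 at 5 to 10 kb (236 summits), 1.91 at 10 to 20 kb (257 summits, interval 1.68 to 2.16) and 1.99 at 20 to 50 kb (443 summits, interval 1.81 to 2.18). Scores had another order: the median was 15.1 in the closest bin, 13.6 and 14.3 in the next bins and 17.2 at 20 to 50 kb.

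The strand of the nearest gene was known for 987 of the 1231 summits, through RefSeq's promoter table. Of these, 509 lay nearest to the 5′ end of the gene, upstream of it, and 478 nearest to the 3′ end, a 5′ share of 51.6% (Wilson interval 48.5% to 54.7%). Summits outside genes but within 1 kb of a protein-coding boundary lay at the 5′ end in 857 of 918 cases, 93.4%. Past 1 kb the shares of both ends were near equal. Per Mb, the 5′ side held 2.14 (interval 1.95 to 2.33) and the 3′ side 2.36 (interval 2.15 to 2.58). In the bin of 1 to 5 kb the 3′ side held 3.09 per Mb and the 5′ side 2.59, and at 20 to 50 kb the 5′ side held 2.14 and the 3′ side 1.95; the intervals of both pairs overlap. Median scores were 15.4 on the 5′ side and 14.2 on the 3′ side, again with overlapping intervals.

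**Figure D2:**
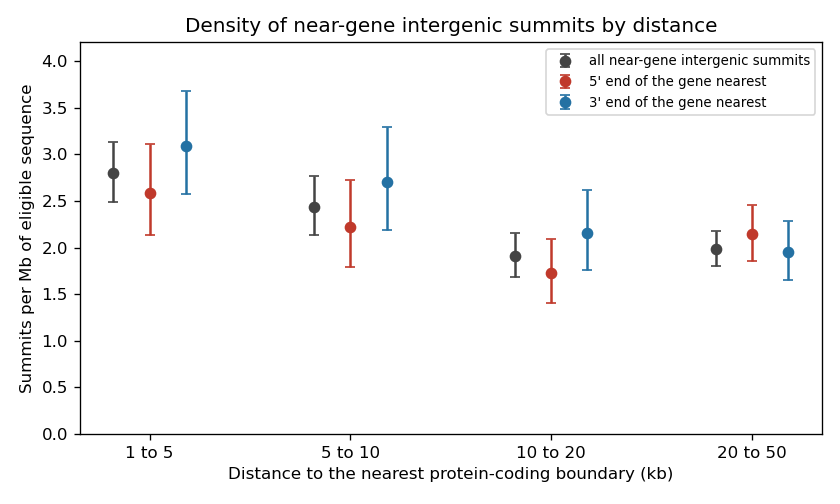
Summits per Mb of sequence that meets the rule (eligible sequence), by distance to the nearest protein-coding boundary, for all near-gene intergenic summits and for those nearest to the 5′ or the 3′ end of the gene; bars are exact 95% Poisson intervals. Density is 2.79 per Mb at 1 to 5 kb and 1.91 at 10 to 20 kb, and the intervals of the gene ends overlap in every bin.

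Densities between gene pairs of different orientation had overlapping intervals. Between divergent genes, whose starts face the gap, it was 2.36 per Mb (235 summits, interval 2.07 to 2.68). Between convergent genes it was 2.39 (161 summits, interval 2.03 to 2.79) and between genes in tandem 2.17 (454 summits, interval 1.97 to 2.37). The remaining 381 summits had a flanking gene of unknown strand. Of the 16483 gaps between protein-coding genes with sequence that meets the rule, 987 held a summit: 815 held 1, 123 held 2 and 49 held 3 or more. Gaps with a summit had a median length of 67.3 kb, against 21.6 kb for those without. Longer gaps have more sequence that could hold a summit, and density by gap length was not computed.

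Summits inside noncoding genes numbered 214, or 17.4% (Wilson interval 15.4% to 19.6%), while such genes cover 12.8% of the sequence that meets the rule. This share depended on the limits: it was 12.6% for summits over 5 kb from any gene boundary, 14.7% with an upper limit of 20 kb and 22.0% with protein-coding boundaries only. The sequence covered was not recomputed under these limits, so these shares have no counterpart to the 12.8%. Density was 2.99 per Mb inside noncoding genes (interval 2.60 to 3.42) and 2.08 outside all genes (interval 1.96 to 2.21). The host was a long noncoding RNA gene alone for 205 of the 214. Median scores were 15.02 in both sets. For 558 summits, 45.3%, a boundary of a noncoding gene lay closer than any protein-coding one. Hosts include Plut, a noncoding gene beside Pdx1, Pax6os1 beside Pax6, and Neat1, the scaffold RNA of nuclear paraspeckles, each described with its neighbour below; Plut and Neat1 were picked out after their values were seen.

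The 15 highest-scoring summits had scores from 319.1 to 1648 and lay 3.14 to 47.5 kb from the nearest protein-coding gene. The gene's 5′ end was nearest in 7, its 3′ end in 5, and the strand was not known in 3. The highest (chromosome 5, position 24078994) was also the highest of the whole list, with 1648, and lay 21.6 kb upstream of Klhl7, which encodes a substrate adaptor of a cullin ubiquitin ligase. Next came the summit 12.4 kb upstream of Higd1a (chromosome 9, position 121870162), a mitochondrial protein gene induced by low oxygen, which scored 877.9. The summit 3.94 kb from Sox18 (chromosome 2, position 181675580), a transcription factor gene of blood and lymph vessels, scored 875.6. The step below the summit at Klhl7 is the widest among the 15, and the pair after it are nearly equal.

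Further down, a summit inside the long noncoding RNA gene Gm38794, 36.5 kb upstream of the histone demethylase gene Kdm7a (chromosome 6, position 39243254), had a score of 769.5. Phf14, a PHD finger gene, had one of 677.9 at 17.6 kb past its 3′ end (chromosome 6, position 12117753). At Ldha, which encodes the A subunit of lactate dehydrogenase, the summit at 46835469 on chromosome 7 lay 6.81 kb upstream and scored 601.5. Lactate dehydrogenase A is known for being kept low in beta cells. Septin9, a cytoskeletal GTPase gene, had a summit of score 548.8 at 3.14 kb past its 3′ end (chromosome 11, position 117365464). The summit nearest to Ica1, the gene of an islet autoantigen that associates with secretory granules, was at 8826076 of chromosome 6, 47.5 kb upstream, with a score of 487.4. It lies close to the 50 kb limit, so a lower limit would drop it.

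Among the rest of the 15, Disp1, needed to release Hedgehog ligands, had a summit of score 475.7 at 10.96 kb past its 3′ end (chromosome 1, position 183075304). Pla2g6, a calcium-independent phospholipase gene also linked to insulin secretion, had one of 423.4 at 5.38 kb upstream (chromosome 15, position 79333765). The summit near Hes2, a repressor gene of the Hairy and Enhancer of split family, scored 384.3 (chromosome 4, position 152168246). Lrrc74a, a gene of a leucine-rich repeat protein, was nearest to one of 370.8 (chromosome 12, position 86801255). Zdhhc19, a palmitoyltransferase gene, was nearest to one of 339.5 (chromosome 16, position 32524077) and Tox3, an HMG-box factor gene, to one of 319.1 (chromosome 8, position 90369978). Only 1 of the 15, that at Kdm7a, lay inside a noncoding gene.

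**Figure D3:**
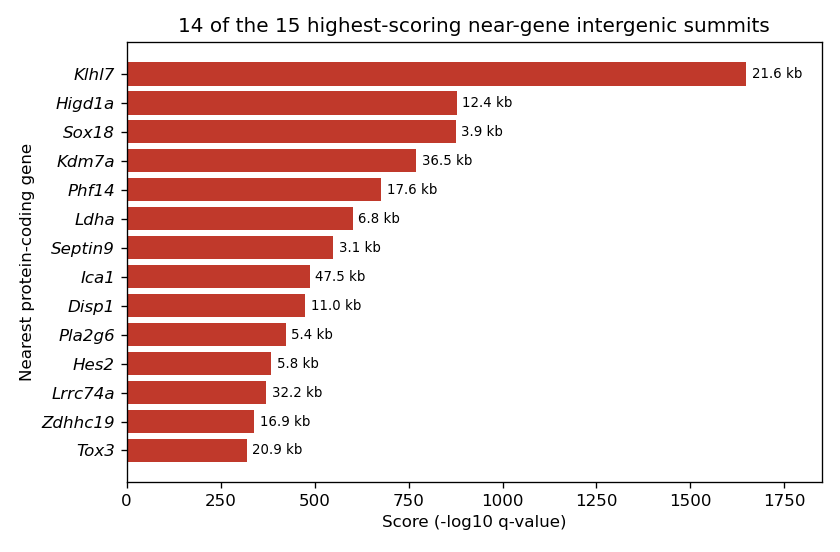
Scores (−log10 q-value, axis from 0) of 14 of the 15 highest-scoring near-gene intergenic summits, by nearest protein-coding gene, with the distance to that gene in kb beside each bar. The summit near Klhl7 stands at 1648, and the others run from 877.9 down to 319.1.

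A total of 1039 of 21627 protein-coding genes, 4.8%, were the nearest gene of at least 1 such summit. Of these, 897 had 1, 105 had 2, 28 had 3, 7 had 4 and 2 had 6. The pair with 6 were Irs2, which encodes an adaptor of the insulin receptor, and Lrrc74a. At Irs2 scores ran from 2.99 to 36.5 with a median of 7.85; 4 summits lay 5.54 to 32.9 kb past its 3′ end and 2 lay 2.03 and 4.46 kb upstream, inside the noncoding gene 9530052E02Rik. At Lrrc74a all 6 lay 21.6 to 48.1 kb past its 3′ end, in the gap towards Irf2bpl, with scores from 6.79 to 370.8. These 2 runs differ in kind: that at Irs2 has no high score, and that at Lrrc74a has 1 of the 15 highest.

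The 7 genes with 4 summits each were Btg2, Foxo6, Frmd8, Hdac11, Rgs8, Sh3bp4 and Tox3. At Hdac11, a class IV histone deacetylase gene, all 4 lay upstream, within 9.43 kb, with scores of 113.9, 15.7, 5.57 and 13.4 from the farthest to the nearest. At Foxo6, a forkhead factor gene of insulin signalling, all 4 lay inside the noncoding gene Gm36134, and scores ran only from 8.63 to 12.8. At Btg2, an antiproliferative gene, 3 lay past the 3′ end and 1 upstream, with scores of 7.51 to 59.5. All 4 at Frmd8 lay past its 3′ end; that at 5841753 of chromosome 19, with a score of 7.65, was inside Neat1. At Sh3bp4 the scores were 22.1 upstream and 106.2, 13.0 and 117.3 past the 3′ end. Rgs8, a regulator of G-protein signalling, had scores of 8.71 to 22.6. At Tox3 the median was 7.98 against its highest of 319.1, so 3 of the 4 were weak.

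**Figure D4:**
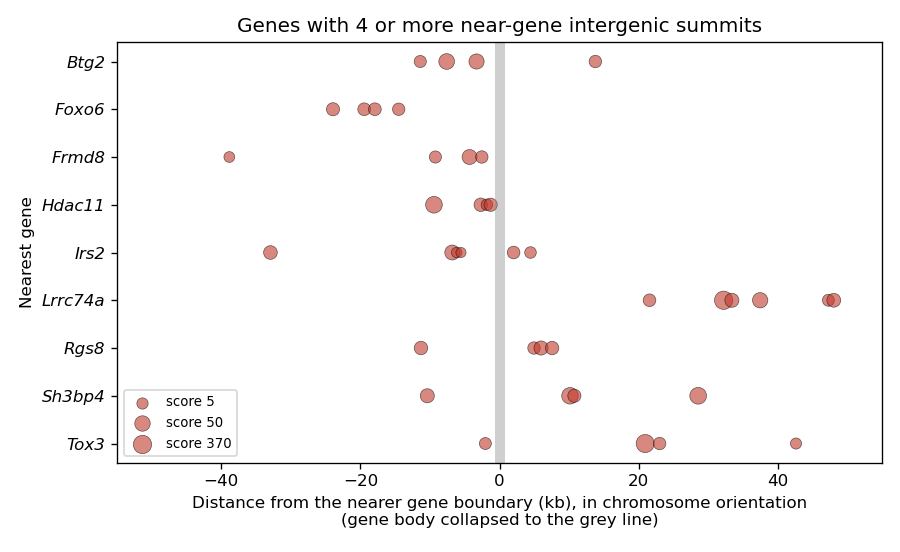
Positions of the near-gene intergenic summits at the 9 genes with 4 or more, as the distance in kb from the nearer gene boundary in chromosome orientation; point area grows with the logarithm of the score. Those of Lrrc74a, Hdac11, Foxo6 and Frmd8 lie on 1 side of the gene, and those of the other 5 genes lie on both.

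Genes of 12 lists were then looked up as nearest genes, beside the 4.8% of all protein-coding genes. The lists were chosen with earlier results of these data known, so their counts are not independent of the data. In the alpha cell list, 5 of 12 genes were nearest to a near-gene intergenic summit, as were 5 of the 12 islet transcription factor genes and 3 of the 12 beta cell genes. Secretory granule and exocytosis genes gave 5 of 21, ion channel genes of islet excitability 5 of 20, and further homeodomain genes of the NKX, IRX, ISL and LHX groups 5 of 25. The KLF family gave 4 of 17, FGF, WNT and BMP ligands 3 of 28, SOX factors 2 of 18, other islet hormone genes with Hhex 1 of 5 and Groucho and other corepressors 1 of 16. Of the 12 liver and muscle genes, a comparison list, 1 was nearest. Over the 11 lists without liver and muscle, 39 of 186 genes were nearest to 49 summits.

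Isolated genes have more intergenic sequence around them that could hold a summit. The sequence meeting the rule for which a gene is the nearest had a median of 49.0 kb over those 186 genes, 15.5 kb over all protein-coding genes and 17.9 kb over the liver and muscle list. Per Mb of this sequence the 186 genes had 5.58 summits (interval 4.13 to 7.37), against 2.198 over all genes. As the lists were chosen with earlier results known, this difference is a description and no test of enrichment. By list, the islet transcription factors had 10.7 per Mb (interval 4.31 to 22.1) and beta cell genes 8.97 (interval 2.91 to 20.9). Alpha cell genes had 8.13 (interval 2.98 to 17.7), granule genes 8.12 and ion channels 7.40. KLF genes had 4.09 (interval 1.11 to 10.5), further homeodomain genes 3.94, corepressors 3.77, liver and muscle genes 3.50, ligands 3.36 and SOX genes 1.89 (interval 0.229 to 6.83). The liver and muscle value rests on 1 summit. Its interval, 0.0886 to 19.5, takes in the density of every other list, so the lists cannot be ranked against it. The islet hormone list, with 1 summit, had 7.37 (interval 0.187 to 41.0). How far gene spacing accounts for the list counts was not tested. The median score over the 49 summits was 12.1, against 15.02 for all near-gene intergenic summits. A score of 100 was reached by 6 of the 49, a larger share than the 85 of 1231, so the medians and the high scores ran in opposite directions; neither difference was tested.

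Among alpha cell genes, the summit with the highest score lay 8.85 kb upstream of Slc38a5 (chromosome X, position 8262536), an amino acid transporter gene of alpha cells, and scored 100.5. It was also the highest of the 12 on the X chromosome. Etv1, an ETS factor gene, had a summit 1.37 kb upstream with a score of 11.8. The Iroquois homeobox genes Irx1 and Irx2 had summits of score 5.32 and 6.91 at 6.22 and 5.93 kb. Ttr, the transthyretin gene, was nearest to a pair inside the noncoding gene Gm16090, 21.2 and 23.3 kb away, with scores of 10.8 and 8.21. Apart from Slc38a5, all of these scores lie under the median of the near-gene intergenic summits.

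Beta cell genes held a stronger pair. Pdx1, the master regulator gene of pancreas and beta cells, had a summit of score 118.6 at 5.98 kb upstream, at position 147264113 of chromosome 5, inside Plut. Slc30a8, the zinc transporter gene of insulin granules, had one of 64.4 at 52278572 of chromosome 15, 17.0 kb away, and another of 9.07 at 5.99 kb on its other side. Ero1b, an oxidase gene of disulfide bond formation, had a pair upstream with scores of 13.7 and 7.43.

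Of the islet transcription factors, Myt1, a zinc finger factor gene of endocrine progenitors, had summits of 103.1 and 52.0 at 4.11 and 1.92 kb upstream. Neurod1, a basic helix-loop-helix factor gene, had one of 14.8 at 3.70 kb upstream. Isl1, a LIM homeodomain factor gene, had a pair of 10.2 and 9.88 past its 3′ end, 3.93 and 4.88 kb away. Foxa2, a forkhead factor gene, had one of 12.7 at 49.8 kb, the farthest but one of all members, inside the noncoding gene 9030622O22Rik. Pax6 had one of 6.79 inside Pax6os1, 2.36 kb upstream. Myt1 alone in this list had scores above the median of 15.02. Hhex, from the hormone list and a factor gene of delta cells, had one of 39.3 at 17.4 kb past its 3′ end.

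Secretory granule genes included a distant strong summit. Scg2, which encodes the granule protein secretogranin II, had one of score 163.7 at 41.9 kb upstream, position 79481887 of chromosome 1, and another of 19.4 at 14.8 kb. Snap25, a SNARE gene of exocytosis, had one of 35.7 at 33.4 kb, inside Gm32659. Chga, the chromogranin A gene, had upstream summits of 30.7 at 3.61 kb and 5.38 at 22.2 kb. Syt13, a synaptotagmin gene, had one of 18.5 and Rims2, an active zone gene, one of 7.54. Among ion channels, Abcc8, the sulfonylurea receptor subunit gene, had one of 21.3 at 7.59 kb. The summits at Kcnq1 (12.1 and 9.61), Kcnj6 (8.48) and Cacna1h (8.30) were all lower.

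In the remaining lists, Lhx4, a LIM homeobox gene, had a summit of 109.2 at 4.32 kb past its 3′ end. Nkx2-3, Lmx1b, Irx3 and Mnx1 had scores from 12.6 down to 6.63. Sox4 had one of 5.38, far below the summit near Sox18 described above. Klf2 had one of 23.7, Klf10 of 15.2, Klf11 of 4.26 and Klf9 of 2.25, the last among the lowest scores of the list. Wnt3a and Wnt7a had 31.1 and 24.5, both past the 3′ end, and Wnt7b a pair of 10.2 and 10.2. Mb, the myoglobin gene, had one of 24.5 at 1.49 kb past its 3′ end. It was the only hit of the 12 genes on the liver and muscle list. Liver or muscle genes outside that list were not counted.

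Some genes nearest to a near-gene intergenic summit also had summits in the body or at the promoter. Of the 1039 genes, 280 also had a summit in the gene body, 26.9% (Wilson interval 24.3% to 29.7%), against 2322 of the 18263 other genes with sequence that meets the rule, 12.7%. A summit within 1 kb of a boundary was present at 162, 15.6% (interval 13.5% to 17.9%), against 10.4%. In the promoter windows, known for 821 of the 1039, 91 genes had a summit, 11.1% (interval 9.12% to 13.4%), against 7.10%. The 1039 genes were also longer, with a median of 27.5 kb against 18.4 kb, and had more intergenic sequence, 44.7 kb against 18.1 kb. The part of length and spacing in these shares was not tested.

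The promoters of 3 named genes that hold such a further summit, picked after their values were seen, are shown to set promoter and distal summits of 1 gene side by side, as the 250 bases before the annotated start in the gene's own direction, from RefSeq's GRCm38.p6 table. Capitals mark the core CACTT or AAGTG, which among these 3 only the Scg2 window holds. Other named genes also had a promoter summit and are not shown. Of those, the windows of Irx2, Sh3bp4, Hdac11 and Foxa2 hold the core, and those of Ldha and Septin9 do not. Scg2 is at chr1:79439977-79440276 on the − strand, Neurod1 at chr2:79456587-79456886 on the − strand and Klf9 at chr19:23140976-23141275 on the + strand; these ranges also take in the 50 bases after the start.
Scg2: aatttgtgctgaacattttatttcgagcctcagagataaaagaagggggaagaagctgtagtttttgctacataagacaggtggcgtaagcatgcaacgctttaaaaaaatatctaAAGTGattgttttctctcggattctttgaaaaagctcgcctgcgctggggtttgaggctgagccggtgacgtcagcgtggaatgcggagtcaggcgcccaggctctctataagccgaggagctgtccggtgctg
Neurod1: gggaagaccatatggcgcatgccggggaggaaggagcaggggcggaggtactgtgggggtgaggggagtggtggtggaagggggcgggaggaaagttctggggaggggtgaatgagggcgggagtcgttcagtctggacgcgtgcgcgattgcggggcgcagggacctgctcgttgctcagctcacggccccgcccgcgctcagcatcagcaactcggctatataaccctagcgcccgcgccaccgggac
Klf9: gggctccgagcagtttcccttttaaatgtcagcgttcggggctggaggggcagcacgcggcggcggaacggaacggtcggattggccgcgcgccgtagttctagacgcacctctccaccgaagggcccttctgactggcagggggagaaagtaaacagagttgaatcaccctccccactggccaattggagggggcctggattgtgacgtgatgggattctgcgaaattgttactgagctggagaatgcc

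At Scg2 the promoter summit, at 79440087 with a score of 15.95, was lower than both upstream summits, of 163.7 and 19.4. At Neurod1 the promoter summit, at 79456814 with a score of 6.03, was lower than the upstream one of 14.8. Klf9 showed the opposite order, with 31.0 at 23141070 in the promoter and 2.25 upstream. Of the named genes not shown, Irx2 had the order of Klf9, with 19.7 in the promoter and 6.91 past its 3′ end. At Sh3bp4, Hdac11, Foxa2, Ldha and Septin9 the highest intergenic summit scored above the promoter one. The core was present once in the Scg2 window, at base 117 counted from the 5′ end, as AAGTG, while the summit fell on base 190. Over the 1623 promoter windows with a summit in the list, the core was in 45.0%, close to the 46.3% of all windows. Longer forms of the core, with N for any base, went both ways. CACTTNA was in 9.06% against 11.6% and CCACTTNA in 3.88% against 3.24%. The GC box GGGCGG was in 70.9% against 35.9%, and TAATTA, which has no G or C, in 1.60% against 5.26%. Base composition was not matched between the sets, so no preference for a motif can be read from these shares.

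Intergenic summits can also lie by microRNA genes, whose products silence messenger RNAs through the seed, bases 2 to 8. Of 1003 hairpins in RefSeq's table on these chromosomes, 11 had a near-gene intergenic summit within 10 kb, 1.1%. The summit 8.12 kb from Mir7b, a member of the miR-7 family that is abundant in islet endocrine cells, was at 56251218 of chromosome 17 with a score of 45.4. That near the let-7 pair Mirlet7a-1 and Mirlet7f-1, at 48546728 of chromosome 13, had a score of 10.9 and lay 8.46 and 8.81 kb away. The highest of the 11, at Mir1291, had a score of 138.0 at 7.68 kb. These 3 loci were picked after their values were seen. Their mature sequences follow with the seed in capitals; the let-7 pair shares its seed.
mmu-miR-7b-5p: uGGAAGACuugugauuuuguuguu
mmu-let-7a-5p: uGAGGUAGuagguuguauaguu
mmu-let-7f-5p: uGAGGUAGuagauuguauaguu
mmu-miR-1291: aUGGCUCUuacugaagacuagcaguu

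Another summit of the list lay within 10 kb of 305 near-gene intergenic summits, 24.8% (Wilson interval 22.4% to 27.3%), against 21.1% of all placed summits. For 211, 17.1% of all 1231 near-gene intergenic summits, the neighbours included another near-gene intergenic summit. Far intergenic summits had a neighbour in 20.8% of cases and those inside genes in 22.8%. Median scores with and without a neighbour were 14.7 and 15.1, with overlapping intervals.

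By chromosome, density ranged from 0.277 per Mb on X (12 summits, interval 0.143 to 0.483) to 3.84 on chromosome 1 (139 summits, interval 3.23 to 4.54). Chromosomes 14 and 9 were also low, at 0.557 (13 summits) and 0.825 per Mb (23 summits), and the others lay between 1.62 and 3.84. The autosomes had a mean of 2.36 ± 0.902 per Mb (SD, n = 19 chromosomes). Within each chromosome's own list the near-gene intergenic share was less uneven. It was 17.1% on chromosome 14 and 19.4% on X, near the 16.7% of the whole list, and 10.6% on chromosome 9 (interval 7.17% to 15.4%). It was highest on chromosome 12, at 23.1% (interval 18.7% to 28.2%).

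**Figure D5:**
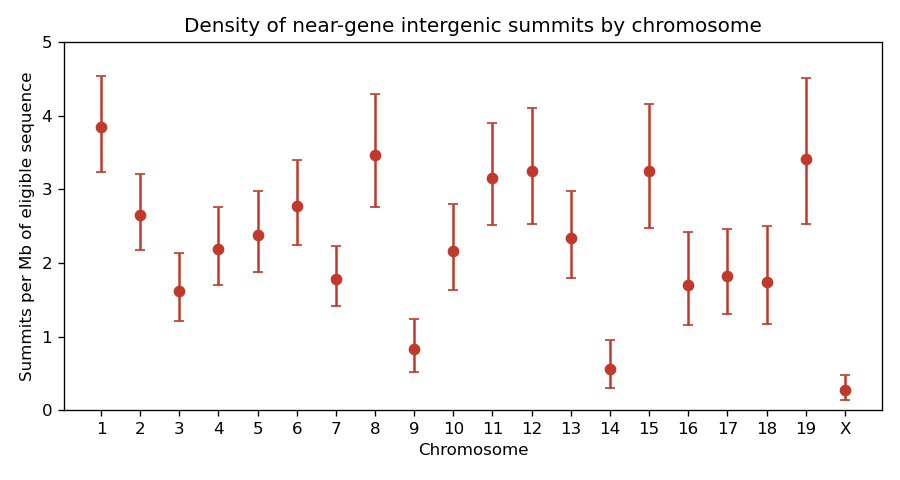
Near-gene intergenic summits per Mb of sequence that meets the rule, for each chromosome, with exact 95% Poisson intervals. Chromosomes 9 (0.825), 14 (0.557) and X (0.277) lie under all others, and chromosome 1 (3.84) is the highest.

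At the limits of the rule, the summits just inside lay 1002 bp and 1009 bp from a gene boundary, with scores of 17.5 and 47.1, and those just outside at 1000 bp and 995 bp, with scores of 14.1 and 30.7. At the other limit, the summits just inside lay 49947 bp and 49787 bp from a protein-coding gene, with scores of 12.3 and 12.7, and those just outside at 50019 bp and 50134 bp, with scores of 14.1 and 52.7.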

How the data were processed

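Bowtie2, MACS2, FastQC and the build mm10 are named in the submitters' processing notes, and peak calling with MACS2 is also in the labels' design text. The authors deposited 1 list of summits whose values are taken as −log10 q-values, as MACS2 writes them; the lowest is 2.03, just above the 2 that corresponds to the q-value limit of 0.01 in the list's name. Versions, duplicate handling and pooling of replicates are not given in the sources used here. Depth is unknown.

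Summits (start + 1) were compared with RefSeq genes of GRCm38.p6, the assembly that mm10 names; 4 summits outside the chromosomes were left out. Strand came from RefSeq's promoter table, which matched 17273 of 21627 protein-coding genes. The sequence meeting the rule was counted base by base. Shares have 95% Wilson intervals, densities exact Poisson intervals and medians order-statistic intervals, all for counting error only. The planned motif search under summits needs a genome and was not run.

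The summits and the 12 gene lists (198 genes, all found by symbol) were chosen with earlier results of these data known. Named genes are those nearest to the 15 highest summits, at most 5 per list, the 5 nearest to the most summits with ties, and the summits at the limits of the rule; other names are said to be chosen afterwards. Ties left 9 genes in place of the 8 that rule allows, and all 9 were named. Of the genes the rule names, 3 are not reported here. Alternatives varied the score minimum, the limits, the gene set and the neighbour distance. The classification was tested on simulated data. Tables were made with pandas 2.3.3 and numpy 2.4.6 under Python 3.11.15, intervals with scipy 1.17.1 and plots with matplotlib 3.10.9.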

Additional observations from a re-analysis of the deposited data

How the results depend on the processing

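No paired analysis was possible because values per library are lacking in the summit list; for the same reason no replicate could be left out. The planned windows of sequence under summits were not run, since no genome was used here. The number of near-gene intergenic summits was 788 with an upper limit of 20 kb and 733 when over 5 kb from any gene boundary was asked for, against 1231. The median score was 16.5 and 22.9 at score minimums of 5 and 10, by construction. The median distance was 6.85 kb with the 20 kb limit, 20.2 kb with a 100 kb limit and 19.1 kb with the 5 kb minimum. The share with a neighbour was 18.2% at a score minimum of 10, 28.0% with the 20 kb limit, and 3.33% and 58.7% for neighbours within 1 kb and 50 kb. Nearest genes numbered 632 with the 5 kb minimum and 2178 when every gene within 50 kb of a summit was counted. The count of nearest genes ran from 3 to 6 over 9 alternatives in the alpha cell list, from 2 to 3 in the beta cell list, from 1 to 5 in the KLF list and from 1 to 7 in the islet transcription factor list, with 1 at the 5 kb minimum. The 5′ share ran from 48.4% to 52.5%. Merging summits within 500 bp, applied to more than the number after the data had been seen, left each of these values as it was. The number stayed at 1231, so the merge removed no near-gene intergenic summit and is no check of these values. Depth limits what a missing summit says: only that no peak was called.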
